A study of Sus scrofa with 6 samples.

Results

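Histone chaperones hold newly made histones, carry them into the nucleus and hand them to DNA, and the oocyte linker histone H1FOO binds between nucleosomes. The genes described here were picked by name: CHAF1A, CHAF1B, ASF1A, ASF1B, NASP, HIRA, HAT1, SLBP and H1FOO. Of these 9 genes, 8 could be matched to the 19300 genes in the files, and all 8 had a mean of at least 1 FPKM (a fragment count normalised for transcript length and library size). HIRA, which deposits the replacement histone H3.3, could not be matched and was not analysed here.

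The samples were 6 pig oocytes, each sequenced alone at the germinal vesicle stage, the arrest before meiosis resumes. They were sorted by brilliant cresyl blue (BCB), a dye that oocytes with active glucose-6-phosphate dehydrogenase reduce to a colourless form. The 3 BCB-negative oocytes lost the colour and are generally taken as still growing, and the 3 BCB-positive oocytes kept it and are generally taken as fully grown. All came from antral follicles of 3 to 6 mm, had at least 3 layers of cumulus cells, received no maturation culture, and had their cumulus and zona pellucida removed before they were lysed.

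The labels name no animal or culture for any oocyte, so each class stands as 1 sample made of 3 cells. No test between the classes was made, and the SD given is the spread between single oocytes. A gene is called separated where the lowest oocyte of one class exceeded the highest of the other. Differences are BCB-positive minus BCB-negative means of log2(FPKM + 1), and they understate the difference of genes at low level. FPKM is relative to each library, so RNA per oocyte was not measured.

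The libraries held 7122749 to 9238987 expected counts. BCB-positive oocyte 3 stood apart, with a mean correlation of 0.874 with the other oocytes across genes against 0.905 to 0.915 for the rest, and results that rest on it are also given without it. It had the most counts. Its 10 genes with the most counts held 9.80% of the total, against 15.6% to 19.0% in the rest. Its FPKM summed to 668430, against 784781 to 811744 in the rest. Of 15 listed oocyte markers, 13 had a mean of 1 FPKM or more, as did 11493 of all 19300 genes, so that count alone says little of cell identity. ZP3 and ZP4 were the most abundant of them, with means of 11426 and 5380 FPKM. NLRP5 was just above the limit at 1.06 FPKM, NOBOX was below it at 0.37 FPKM, and 1 marker was not matched. Of 15 markers of cumulus and granulosa cells, 10 were matched, and their summed level was 20.4 to 31.8 FPKM in the BCB-negative class and 30.2 to 36.8 FPKM in the BCB-positive class. Nearly all of that sum was INHBA, with a mean of 25.9 FPKM, followed by GREM1 at 2.32 FPKM. The granulosa enzyme CYP19A1 was at most 0.18 FPKM. Markers of theca and stroma summed to at most 3.33 FPKM and those of blood and macrophages to at most 3.08 FPKM.

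In the course of chromatin assembly, HAT1 acetylates new histone H4, NASP keeps a reserve of soluble H3 and H4, and ASF1A and ASF1B pass H3-H4 dimers on. CAF-1, with the subunits CHAF1A and CHAF1B, places them on replicating DNA, while HIRA works independently of replication. SLBP binds the stem-loop that ends most replication-dependent histone mRNAs and is needed for their stability and translation. The oocyte is known to store histones and histone mRNA for the cleavage divisions of the embryo, when transcription is low.

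The classes differed in a few of these genes. The HAT1 transcript was higher and the CHAF1A transcript lower in every BCB-positive oocyte, and the other 6 genes overlapped between the classes. Among all 11493 genes compared, 7.44% were separated with BCB-positive higher, 4.03% with BCB-positive lower and 11.5% in either direction, so 2 separated genes of 8 is a small number to read against that background. With FPKM divided by size factors the shares of all genes were 5.89% and 5.38%, and after rescaling every library to one FPKM sum they were 8.97% and 3.11%. HAT1 was also at least 1.5-fold higher, as were 5.75% of all genes by both criteria, while no member was separated and 1.5-fold lower, against 2.66% of all genes. Irrespective of overlap, 3 of the 8 genes differed by at least 1.5-fold, against 28.3% of all genes. Without BCB-positive oocyte 3 this held for 1 of the 8, SLBP, against 24.9% of all genes. The mean of log2(FPKM + 1) was higher in BCB-positive oocytes for 6 of the 8 genes and for 58% of all genes, it was lower for 2 and for 42%, and the median difference was 0.33 for the 8 genes and 0.11 for all genes.

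**Figure D1:**
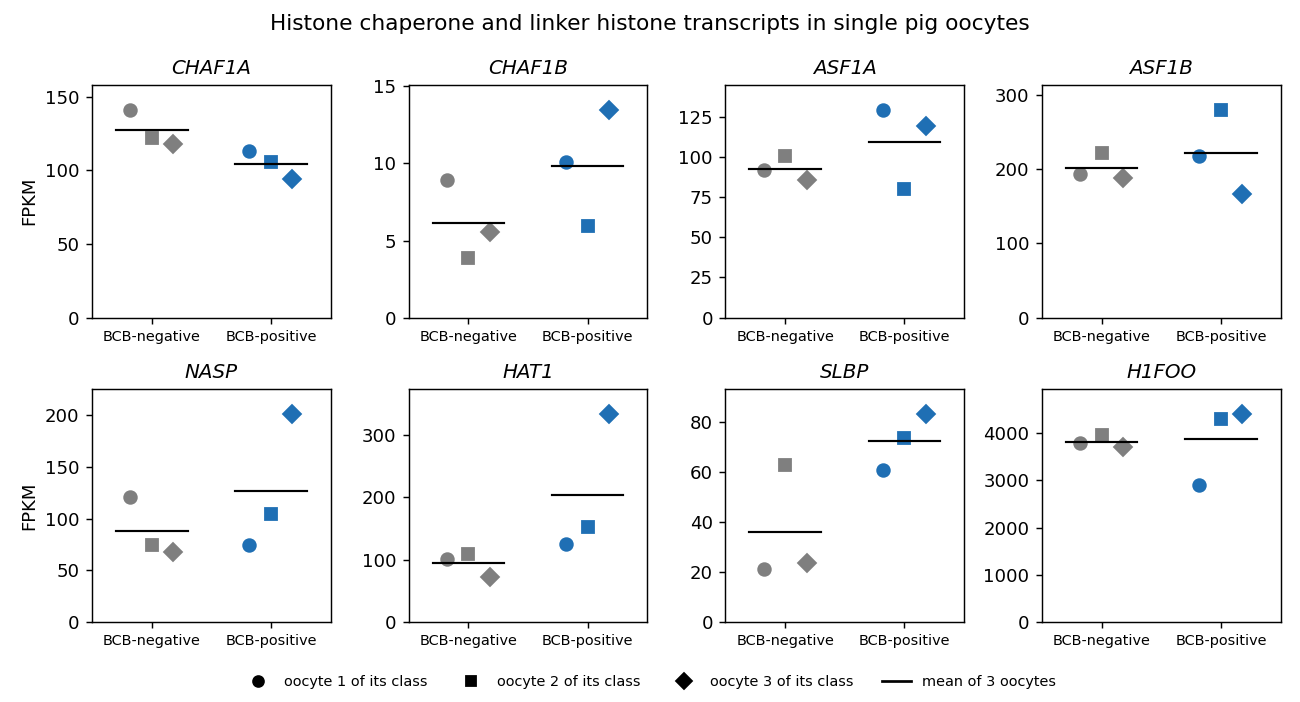
FPKM of 8 genes in each oocyte, on linear axes that start at 0, with BCB-negative oocytes in grey and BCB-positive oocytes in blue; the marker shape gives the oocyte's number in its class and the bar the mean of 3 oocytes. The classes do not overlap for HAT1 and CHAF1A, and BCB-positive oocyte 3 is the highest for 5 of the 8 genes.

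HAT1, the type B acetyltransferase that marks new histone H4, was at 101.6, 108.8 and 72.0 FPKM in oocytes 1, 2 and 3 of the BCB-negative class. Oocytes 1, 2 and 3 of the BCB-positive class had 124.8, 152 and 334 FPKM. Values are given in the order of oocytes 1, 2 and 3 throughout. Every BCB-positive oocyte was above every BCB-negative one, and BCB-positive oocyte 3 was far above the rest. The log2 difference was 0.99, or 1.99-fold, with a pooled SD of 0.57. Without BCB-positive oocyte 3 it was 0.57, just under the 1.5-fold limit of 0.585, and the other BCB-positive oocytes remained above all BCB-negative ones. The nearest oocytes of the classes were BCB-negative oocyte 2, with 1290 counts or 168 CPM (counts scaled to the library total), and BCB-positive oocyte 1, with 1519 counts or 194 CPM. Their exact 95% Poisson intervals, which cover counting error only, were 159 to 178 and 185 to 204 CPM and did not overlap. The gene file lists 2 HAT1 transcripts, and in every oocyte all of the signal was assigned to XM_003483674.2.

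CHAF1A, the large subunit of CAF-1, was at 141, 122 and 118 FPKM in the BCB-negative class, against 113, 105.6 and 94.3 FPKM in the BCB-positive class. The classes did not overlap, but they nearly met. The log2 difference was -0.28 with a pooled SD of 0.13, so CHAF1A was 1.21-fold higher in BCB-negative oocytes. The nearest oocytes were BCB-negative oocyte 3, at 393 CPM with a 95% Poisson interval of 378 to 408, and BCB-positive oocyte 1, at 378 with an interval of 364 to 392. These intervals overlapped. The CHAF1A difference was -0.21 without BCB-positive oocyte 3.

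CHAF1B, the middle subunit of CAF-1, was scarce beside its partner. It was at 8.96, 3.84 and 5.55 FPKM in the BCB-negative class, against 10.1, 5.94 and 13.5 FPKM in the BCB-positive class. The classes overlapped, since BCB-negative oocyte 1 exceeded BCB-positive oocyte 2. The log2 difference was 0.61 with a pooled SD of 0.53, and 0.37 without BCB-positive oocyte 3. CHAF1B rested on 69 to 294 counts per oocyte, the fewest of the 8 genes. On the length-normalised scale CHAF1A exceeded CHAF1B in every oocyte, by 15.7, 31.8 and 21.3 times in BCB-negative and by 11.2, 17.8 and 6.99 times in BCB-positive oocytes. The subunits of CAF-1 thus had opposite signs of difference, and their ratio overlapped between the classes.

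The ratio of HAT1 to CHAF1A, in which the scaling of a library cancels, was chosen after the values were seen as 1 of 8 ratios computed. It was 0.720, 0.891 and 0.610 in BCB-negative oocytes and 1.10, 1.44 and 3.55 in BCB-positive oocytes. HAT1 FPKM was below CHAF1A FPKM in each BCB-negative oocyte and above it in each BCB-positive oocyte. Since both genes were separated in opposite directions, the separation of their ratio is not further evidence.

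ASF1A and ASF1B are paralogous carriers of H3-H4 that serve both CAF-1 and HIRA, with ASF1B generally the form of proliferating cells. ASF1A was at 92.2, 101 and 86.0 FPKM in the BCB-negative class, against 129.6, 80.2 and 119 FPKM in the BCB-positive class, a log2 difference of 0.21 with a pooled SD of 0.27. BCB-positive oocyte 2 was the lowest of all for ASF1A. ASF1B was at 194, 222 and 188 FPKM in the BCB-negative class, against 218, 280.2 and 167 FPKM in the BCB-positive class, a log2 difference of 0.11 with a pooled SD of 0.28. The ASF1B difference was 0.30 when BCB-positive oocyte 3 was left out and -0.07 when BCB-positive oocyte 2 was. BCB-positive oocyte 2 was here the highest, and BCB-positive oocyte 3 the lowest. ASF1B exceeded ASF1A in every oocyte, by 2.11, 2.21 and 2.19 times in BCB-negative oocytes and by 1.68, 3.49 and 1.40 times in BCB-positive oocytes. The ratio of the paralogs was close to uniform in the BCB-negative oocytes and lay both above and below that level in the BCB-positive ones. All counts of both genes were whole numbers, so no division of reads between the paralogs was visible in the files.

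NASP, the reserve chaperone of H3 and H4 that also binds linker histones, was at 121, 74.3 and 67.6 FPKM in the BCB-negative class, against 74.6, 104.6 and 201 FPKM in the BCB-positive class. The classes overlapped widely. The log2 difference was 0.45 with a pooled SD of 0.60, and 0.06 without BCB-positive oocyte 3. NASP was the only one of the 8 genes with 2 transcripts above 0. The shorter, XM_003361739.2 of 2349 bases, held 63.3%, 61.0% and 48.5% of NASP FPKM in BCB-negative oocytes and 56.1%, 62.6% and 71.5% in BCB-positive oocytes. The rest belonged to XM_005658787.1 of 2458 bases. The shares overlapped, and the class means differed by 5.80 percentage points. That difference was 1.75 points without BCB-positive oocyte 3, 1.24 points without BCB-negative oocyte 3 and 9.45 points without BCB-positive oocyte 1.

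SLBP was at 21.3, 62.9 and 23.4 FPKM in the BCB-negative class, against 60.8, 73.6 and 83.2 FPKM in the BCB-positive class. BCB-negative oocytes 1 and 3 were low, while BCB-negative oocyte 2 lay just above BCB-positive oocyte 1. The log2 difference was 1.16 with a pooled SD of 0.62, and it was 1.06 without BCB-positive oocyte 3. Leaving out BCB-negative oocyte 2 gave 1.65, and the classes then separated.

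SLBP was also the one gene of the 8 whose expected counts were not whole. Across the files a single other gene, NCBI gene 100625723 with the transcript XM_005658322.1, had fractions that complemented those of SLBP to a whole number in all 6 oocytes within 0.015, as occurs when reads are divided between a pair of genes. No symbol was found for it. SLBP received 13.2%, 23.6% and 14.9% of the joint counts in BCB-negative oocytes and 21.1%, 22.3% and 29.4% in BCB-positive oocytes. The SLBP value therefore depends on how those reads were assigned.

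The joint counts of SLBP and gene 100625723 were 2036, 3397 and 1872 in BCB-negative oocytes and 3773, 4486 and 4390 in BCB-positive oocytes. In CPM these were 267, 443 and 263 against 482, 548 and 475. The sum was separated, with BCB-negative oocyte 2 again the highest of its class. Neither gene was separated alone. Gene 100625723, which held most of the joint counts in every oocyte, had a log2 difference of 0.54 by itself, with a pooled SD of 0.26. Summed FPKM averaged 158 ± 52.9 (SD, n = 3) in BCB-negative and 248 ± 19.7 (SD, n = 3) in BCB-positive oocytes. The log2 difference of the sum was 0.69 with a pooled SD of 0.33. This sum was added after the data were seen.

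**Figure D2:**
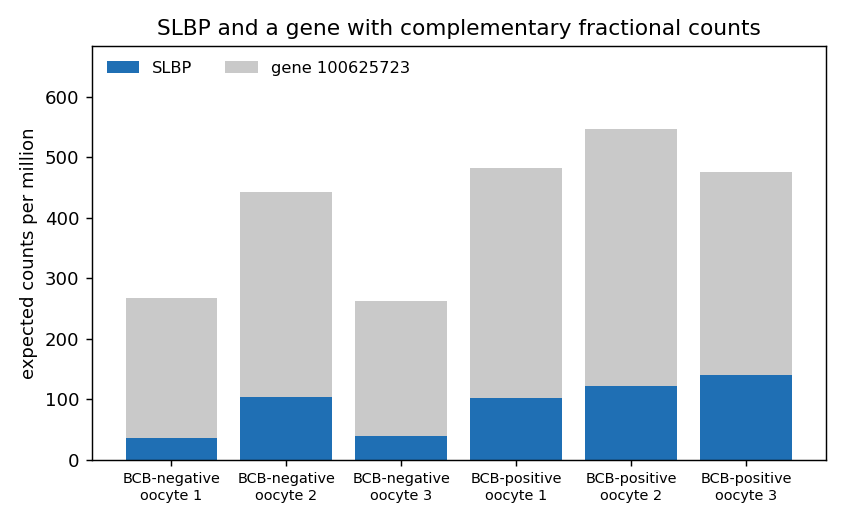
CPM of SLBP (blue) and of gene 100625723 (grey, stacked above) in each oocyte, on an axis that starts at 0. The joint height is 263 to 443 in BCB-negative and 475 to 548 in BCB-positive oocytes, and the blue part is the smaller in every oocyte.

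H1FOO, the linker histone of oocytes and early embryos, was by far the most abundant of the 8 genes and did not separate the classes. It was at 3801, 3957 and 3702 FPKM in the BCB-negative class, against 2896, 4301 and 4408 FPKM in the BCB-positive class. The BCB-negative oocytes were close together, and the BCB-positive oocytes lay on both sides of them. The log2 difference was -0.01 with a pooled SD of 0.24. Its sign changed with the scaling, at -0.11 with size factors and 0.09 after rescaling to one FPKM sum. H1FOO ranked between 9 and 22 among all genes by FPKM in the 6 oocytes and took 0.299% to 0.458% of the expected counts. It exceeded ASF1B by 13.3 to 26.3 times. No other linker histone of the histone gene list was matched.

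Ordered by mean FPKM in BCB-negative oocytes, the genes ran from H1FOO at 3820 ± 129 and ASF1B at 202 ± 18.2 to CHAF1A at 127 ± 12.2, HAT1 at 94.1 ± 19.5, ASF1A at 93.0 ± 7.38, NASP at 87.7 ± 29.2, SLBP at 35.9 ± 23.4 and CHAF1B at 6.12 ± 2.61 (SD, n = 3). HAT1, ASF1A and NASP did not differ beyond their spread there. In BCB-positive oocytes the order was H1FOO at 3868 ± 844, ASF1B at 222 ± 56.5, HAT1 at 204 ± 114, NASP at 127 ± 66.2, ASF1A at 109.7 ± 26.1, CHAF1A at 104 ± 9.63, SLBP at 72.5 ± 11.2 and CHAF1B at 9.84 ± 3.78 (SD, n = 3). From ASF1B to CHAF1A, the means of neighbours in that order differed by less than the larger of their SDs between oocytes. Those SDs do not compare genes within an oocyte. Within BCB-positive oocytes, HAT1 was 1.67, 1.46 and 1.66 times NASP, and 0.572, 0.544 and 2.00 times ASF1B. By class mean, CHAF1A was thus the third in one class and the sixth in the other. That sixth place rested on BCB-positive oocyte 3. NASP was 0.657, 0.990 and 2.13 times CHAF1A in BCB-positive oocytes, so CHAF1A was below NASP in oocyte 3 alone.

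The genes also differed in how far they varied between oocytes. Over all 6 oocytes the SD of log2(FPKM + 1) was 0.20 for CHAF1A, 0.22 for H1FOO, 0.25 for ASF1B and 0.27 for ASF1A, against a median of 0.56 for all genes. Of all genes, 2.52% varied less than CHAF1A and 4.04% less than H1FOO. HAT1 and SLBP varied more than most genes, with SDs of 0.75 and 0.84, and the highest oocyte exceeded the lowest 4.64-fold and 3.91-fold. CHAF1B and NASP were near the median of all genes, at 0.58 and 0.59. An SD over all 6 oocytes includes the difference between the classes. Within classes, the pooled SDs of HAT1 and SLBP were 0.57 and 0.62, close to the median pooled SD of 0.54 for all genes. Abundance was not matched in this comparison, and counting error is smaller for abundant genes.

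**Figure D3:**
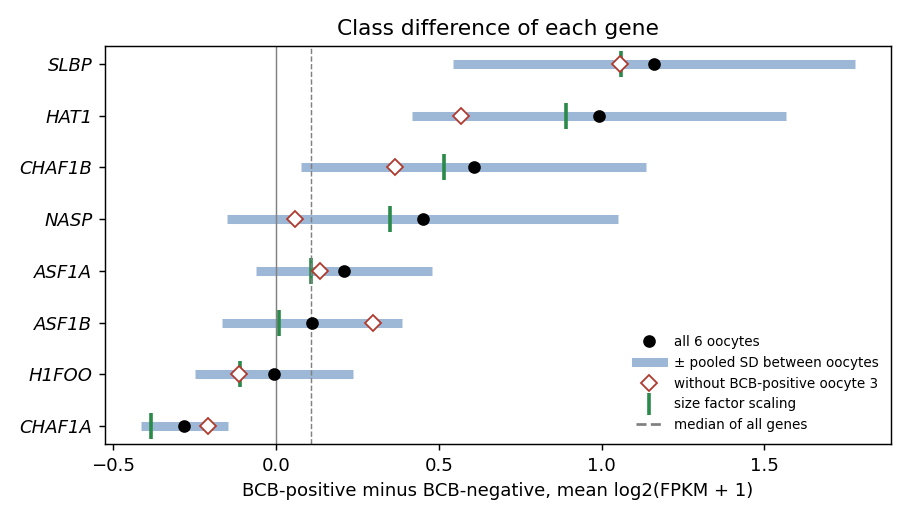
Difference of mean log2(FPKM + 1), BCB-positive minus BCB-negative, for each of 8 genes with all oocytes (black), without BCB-positive oocyte 3 (open diamond) and under size factor scaling (green tick); bars span the pooled SD between oocytes and the dashed line is the median of all genes, 0.11. NASP goes from 0.45 to 0.06 and HAT1 from 0.99 to 0.57 without that oocyte, while SLBP stays above 1.

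BCB-positive oocyte 3 had the highest value for 5 of the 8 genes, CHAF1B, NASP, HAT1, SLBP and H1FOO, and for 32.6% of all genes. It had the lowest value for CHAF1A and ASF1B. As a description over 6 oocytes that share a lane and scaling, HAT1 and NASP had a Pearson r of 0.85, which was 0.43 without that oocyte. HAT1 and SLBP had an r of 0.74, and 0.80 without it. CHAF1A ran against both, with an r of -0.78 with HAT1 and -0.78 with SLBP, which were -0.47 and -0.73 without that oocyte. Each r spans both classes and so includes the class differences given above. HAT1 and CHAF1A were separated in opposite directions, so their negative r is not further evidence. The pairs named were those with the largest r in size over the 6 oocytes, and the median over all 28 pairs was 0.09. Other pairs became strong only without BCB-positive oocyte 3. ASF1B and HAT1 went from -0.21 to 0.88, and ASF1A and H1FOO from -0.48 to -0.89.

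Among 5647 other genes with a symbol and a mean of at least 5 FPKM, those most like each gene over the 6 oocytes had an r between 0.979 and 0.997. They were CRYM and NOP56 for CHAF1A, ATP6AP2 and NKAPL for CHAF1B, MTFR2 and OXSM for ASF1A, and MRPS17 and MRPS11 for ASF1B. For NASP they were ANO4 and SUCLG1, for HAT1 PAIP1 and PIN4, for SLBP RALA and SLC28A3, and for H1FOO DNAJB2 and CIDEA. Such likeness was common with so few oocytes: between 26 genes, for ASF1A, and 337 genes, for HAT1, had an r above 0.9.

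The partners of these genes were taken from 8 lists of other chaperones, histone mRNA factors and histones. Of 69 listed genes, 49 were matched and 39 had a mean of at least 1 FPKM. Of those 39, 4 were separated with BCB-positive higher and 0 with BCB-positive lower, against 7.44% and 4.03% of all genes. Their median difference was 0.20, against 0.11 for all genes. With size factors, 2 of the 4 remained separated, SET and CASP8AP2.

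Of 9 compared partners of replication-coupled assembly, 2 were separated and higher. RBBP4, the small subunit of CAF-1, was at 25.5, 30.1 and 18.1 FPKM in the BCB-negative class, against 33.3, 30.5 and 59.5 FPKM in the BCB-positive class. BCB-negative oocyte 2 and BCB-positive oocyte 2 nearly met, and the log2 difference of 0.69 was 0.39 without BCB-positive oocyte 3. MCM2, a helicase subunit that also chaperones H3-H4, was separated by a narrow margin, at 37.2 to 39.9 FPKM against 41.9 to 47.4 FPKM, a log2 difference of 0.20. RBBP7, which works with HAT1 and was named after its values were seen, was at 91.3, 65.9 and 78.3 FPKM in the BCB-negative class, against 68.5, 125 and 311 FPKM in the BCB-positive class. RBBP7 overlapped between the classes, and its difference of 0.83 was 0.25 without BCB-positive oocyte 3. The CAF-1 subunits CHAF1A, CHAF1B and RBBP4 thus showed differences of -0.28, 0.61 and 0.69.

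Partners of HIRA and of the other H3.3 route had means of at most 21.9 FPKM and overlapped. Of 5 matched genes, 4 were compared and none was separated. UBN1 of the HIRA complex was at 20.4 to 25.6 FPKM in the BCB-negative class, against 19.0 to 24.2 FPKM in the BCB-positive class, a log2 difference of -0.14. DAXX, which deposits H3.3 with ATRX, differed by -0.24. On the log2(FPKM + 1) scale all 4 class means were lower in BCB-positive oocytes, and the median difference was -0.19.

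Among 8 nucleoplasmins and acidic chaperones, 1 was separated. SET, which binds histones and inhibits their acetylation, was at 62.9 to 89.5 FPKM in the BCB-negative class, against 94.9 to 104.6 FPKM in the BCB-positive class, a log2 difference of 0.41 that was 0.37 without BCB-positive oocyte 3. NPM2, the oocyte nucleoplasmin, was named after its values were seen and, like H1FOO, is abundant in oocytes. NPM2 was at 1812, 1571 and 1375 FPKM in the BCB-negative class, against 1316, 1778 and 523 FPKM in the BCB-positive class. BCB-positive oocyte 3 was thus the lowest for NPM2 and the highest for H1FOO. The somatic paralog NPM1 was highest there, at 1049.7 FPKM against 184 to 363 FPKM in the other oocytes.

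Of 6 compared genes of histone mRNA processing, the group in which SLBP works, 1 was separated. CASP8AP2, a factor of histone gene transcription and mRNA 3' processing, was at 1.97, 1.01 and 2.16 FPKM in the BCB-negative class, against 4.42, 3.33 and 15.3 FPKM in the BCB-positive class. Its log2 difference was 1.45 with a pooled SD of 0.77, and 0.86 without BCB-positive oocyte 3. MIF4GD, which links SLBP to translation and was named after its values were seen, was at 51.4 to 76.5 FPKM and 61.7 to 68.6 FPKM with a difference of -0.02, and LSM11 of the U7 particle differed by -0.41, both overlapping. CPSF3 and ERI1, named after their values were seen, went the other way, at 1.09 and 0.56, and also overlapped. Without BCB-positive oocyte 3 they were at 0.54 and 0.10. Of the 6 genes, 3 had a higher mean of log2(FPKM + 1) in BCB-positive oocytes, and the median difference was 0.27.

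The remaining lists held no separated gene. SSRP1 and SUPT16H, which form the FACT chaperone, had differences of 0.23 and 0.44, which became -0.25 and -0.07 when BCB-positive oocyte 3 was left out. CENPA, the centromeric H3 variant, was the single compared gene of its list and differed by 0.45. ACTL6A and RUVBL1, of the complexes that exchange H2A.Z, had differences of 0.26 and 0.19, and of -0.04 and -0.07 with BCB-positive oocyte 3 left out. Only 3 of 16 listed histone genes were matched, of which H3-3A and H2AZ1, replacement histones, differed by 0.14 and 0.09. The other 13 were not found by symbol, so their levels are not known. Most replication-dependent histone mRNAs lack a poly(A) tail, and first strands were made here from a primer with a 24-nt poly(dT) end. Any effect of this on the histone genes was not tested.

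**Figure D4:**
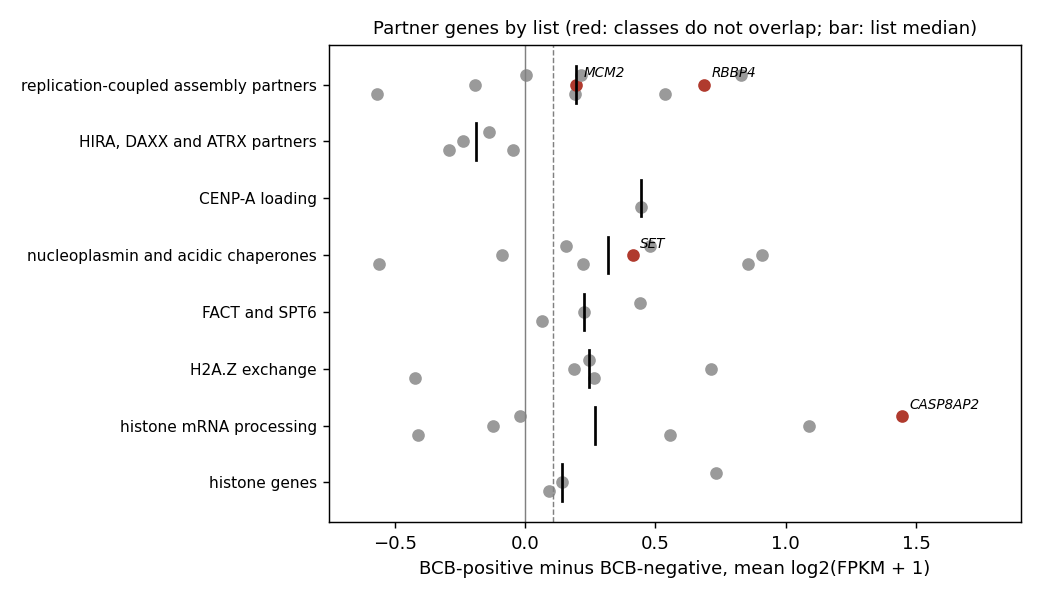
Differences of mean log2(FPKM + 1), BCB-positive minus BCB-negative, of 39 partner genes in 8 lists; each point is a gene, red where the classes do not overlap, short bars are list medians and the dashed line is the median of all genes. The 4 red points, MCM2, RBBP4, SET and CASP8AP2, all lie above 0.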

How the data were processed

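Single-oocyte RNA sequencing was analysed from gene and transcript files of 6 oocytes. RSEM, BWA, Cufflinks and the build Sscrofa10.2 are named by the submitters' processing notes, with versions and roles not given in the sources used. The authors deposited an expected count per gene and transcript, an estimate that can be fractional. They also deposited FPKM, scaled by them to length and library and given with 2 decimals. Genes that a file did not list counted as 0. The protocol names no molecular identifiers, so Poisson intervals cover counting error only.

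Symbols came from a table of the assembly Sscrofa11.1, used for names only: gene IDs named 13936 of 19300 genes, unversioned transcript accessions 133 more, and 5231 had no match. Positions and sequences were not used here. With Python 3.11.15 and pandas 2.3.3, log2(FPKM + 1) was compared for 11493 genes, those averaging 1 FPKM or more. The pooled SD is that between oocytes of a class. Isoform shares are of gene FPKM.

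The 9 genes and the lists were chosen with earlier results of these data known. The rule for names took all 9 genes, and up to 4 separated genes of each list or else its 2 most abundant. It also took the 2 most alike genes of each member and the 2 most abundant of each marker list. Some of these genes are not named, and CYP19A1, RBBP7, NPM1, NPM2, MIF4GD, LSM11, CPSF3 and ERI1 were named outside the rule. Alternatives were size factors, a common sum, CPM from the expected counts, a pseudocount of 0.1 FPKM, other filters and leaving out each oocyte. Without named animals or cultures, no test between classes was fitted.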

Additional observations from a re-analysis of the deposited data

How the results depend on the processing

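HAT1 and CHAF1A kept their direction and their separation under all 10 alternatives, with ranges of 0.57 to 1.28 and -0.38 to -0.19; a separated gene stays separated when an oocyte is left out, so only the scalings could undo it. Under the same alternatives SLBP ranged from 0.885 to 1.65 and NASP from 0.06 to 0.77. CHAF1B ranged from 0.36 to 0.90 and ASF1A from 0.08 to 0.42. All of these values were above 0. The sum of SLBP and gene 100625723, a further alternative, gave 0.69. ASF1B ranged from -0.07 to 0.30 and H1FOO from -0.11 to 0.19, each with both signs. Leaving out an oocyte gave 1 to 3 separated higher members, 0 to 3 that were also 1.5-fold higher and 1 lower; fewer oocytes separate more genes, and 11.5% to 17.2% of all genes were then higher. The 0 was without BCB-positive oocyte 3. Summing SLBP with gene 100625723 gave 2 separated higher members. For the 39 partner genes, 2 were separated higher and 0 lower with size factors, against 5.89% and 5.38% of all genes. With an oocyte left out, 4 to 10 of the 39 were higher and 0 to 4 lower, against the shares of all genes just given. The median difference of the partner genes was 0.10 with size factors and 0.10 to 0.36 with an oocyte left out. The median of all genes was 0.02 with size factors and 0.19 with a common sum. The median of the 8 genes was 0.22 to 0.47 with an oocyte left out, 0.23 with size factors and 0.42 with a common sum. The likeness of the most alike genes had a median of 0.989 by Pearson r, 1.000 by Spearman rho and 0.986 without BCB-positive oocyte 3. No paired analysis was possible because the labels do not tie same-numbered oocytes of the classes. CHAF1B, at 69 to 294 counts, has the widest counting error.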
